A study of Mus musculus with 6 samples.

Results

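Collagen genes outside type IV were compared between kidneys of mice labelled DKD (diabetic kidney disease) and kidneys of mice labelled control. The members were all genes whose mouse symbol reads Col, a type number, the letter a and a chain number, leaving out the type IV chains, and which held at least 10 counts over the 6 libraries. Of 38 such symbols 35 met the minimum, out of 55401 gene IDs in the table. Col2a1, Col9a1 and Col9a2, chains of cartilage collagens, held fewer counts. RNA of whole kidneys was purified by poly(A) selection and sequenced, with 3 DKD and 3 control libraries. The labels give the group as the genotype and add no strain, allele, agent, age, sex or duration of disease, and they do not say that each library is a separate mouse, so a p-value below reflects the variation among these 6 libraries, part of which may be technical.

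Collagens are trimers of chains that wind into a triple helix, and the glycine that each turn needs recurs throughout the helical part of every chain. Fibrillar collagens have long unbroken helices and form the cross-striated fibrils of the interstitium, a space that widens in renal fibrosis. FACIT collagens (fibril-associated collagens with interrupted triple helices) sit on fibril surfaces. Network collagens of type VIII form sheets, type VI forms beaded filaments around cells, type VII forms anchoring fibrils under epithelia, the multiplexins of types XV and XVIII sit in basement membranes, and transmembrane collagens are anchored in the plasma membrane. Fibroblasts and pericytes make most interstitial collagen in the kidney.

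The glycine repeat can be read in the coding sequences, where it appears as a codon that starts with GG (GGN, any base in the last position) followed by a pair of other codons. In GENCODE M21 transcripts (build GRCm38), the longest unbroken run of such repeats was longest in the fibrillar class. It was 337 to 344 repeats in 8 of the 10 fibrillar members, and 217 in Col27a1 and 216 in Col24a1. It was 32 to 113 repeats in the 7 FACIT members, 60 to 61 in the 3 network members, 37 to 87 in the 6 type VI chains, 40 to 56 in the 4 transmembrane members and 30 in both multiplexins. Stretches of 72 coding bases show the repeat and how it breaks. For the fibrillar Col1a1 (coding bases 502 to 573) and Col3a1 (490 to 561) the start of the longest run is printed. For the multiplexin Col18a1 (3091 to 3162) and the FACIT Col19a1 (2974 to 3045) the end of the longest run and the break that follows are printed. Because the stretches were placed in this way, they do not compare run lengths between classes. Capitals mark the GGN codons in the frame of the repeat.
Col1a1: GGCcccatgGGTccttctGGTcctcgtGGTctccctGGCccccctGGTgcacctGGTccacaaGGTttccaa
Col3a1: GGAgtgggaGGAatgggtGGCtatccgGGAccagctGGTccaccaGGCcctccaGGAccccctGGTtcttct
Col18a1: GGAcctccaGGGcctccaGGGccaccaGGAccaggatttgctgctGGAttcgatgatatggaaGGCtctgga
Col19a1: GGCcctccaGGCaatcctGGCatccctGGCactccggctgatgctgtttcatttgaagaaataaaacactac

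**Figure D1:**
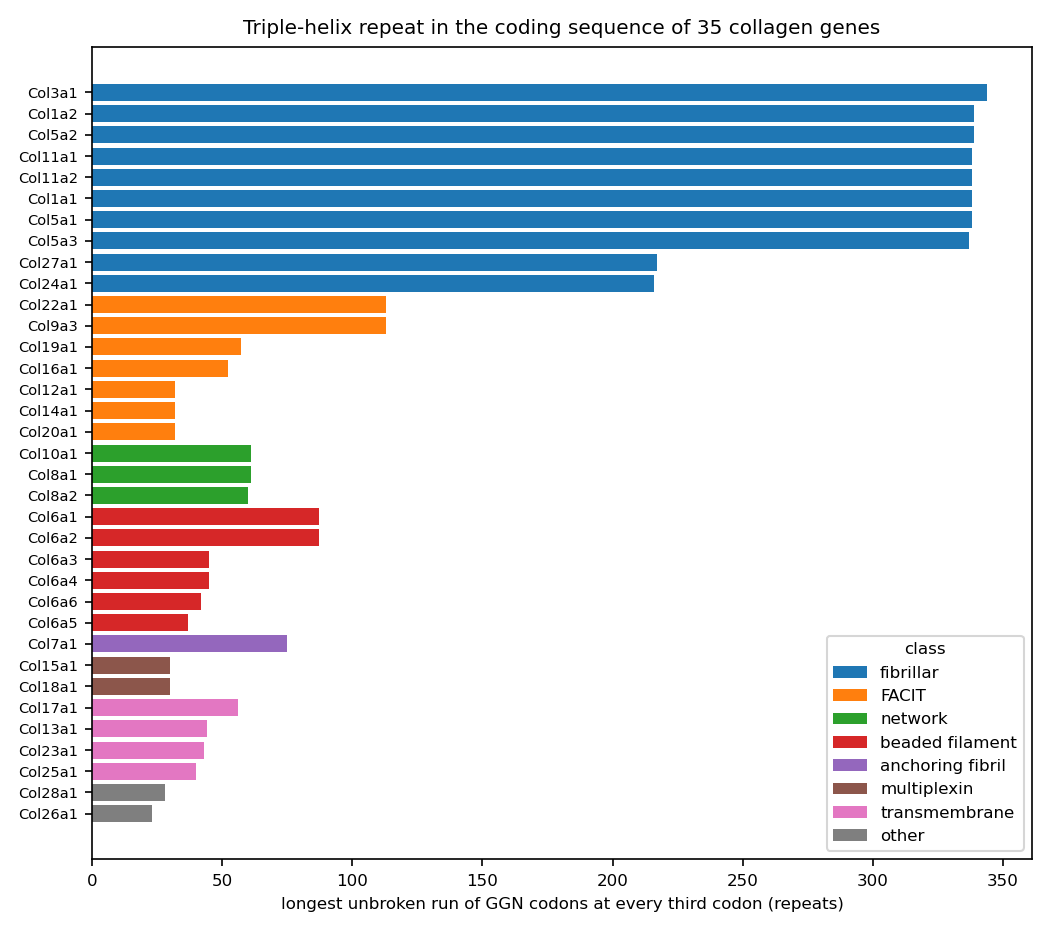
Longest unbroken run of GGN codons in the frame of the helix repeat (x axis, repeats) in the coding sequence of each of the 35 collagen genes (y axis), coloured by class. The 10 fibrillar genes have runs of 216 to 344 repeats, and the runs of all other genes have at most 113.

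Levels are given as CPM, the counts scaled to a common library size with TMM factors (edgeR). Library totals ran from 71588579 to 77417638 counts in DKD and from 64816622 to 72845799 in control kidneys. DKD replicate 1 stood apart: it held 2321 CPM of Alb, the hepatocyte albumin gene, against 9.47 and 7.2 CPM in the other DKD kidneys and 12.2 to 14.7 CPM in control kidneys. Its correlation over log2 CPM of all genes tested was 0.946 to 0.951 with the other DKD kidneys and 0.963 to 0.966 with control kidneys. Collagen results are therefore also given without it. This choice followed from looking at the libraries. Leaving out the DKD kidney that correlated best with control kidneys can favour a difference between groups, so adjusted p-values without it are a description. The tissue label fitted its markers, since 5 proximal tubule genes summed to 5831 to 8407 CPM in DKD kidneys and 9294 to 9939.6 CPM in control kidneys. Because whole tissue was measured, fewer cells of a type and less RNA per cell cannot be told apart.

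The study set DKD against control kidneys to profile transcripts, with histone methyltransferases as its stated interest, and the same comparison was read here for the collagens. Of the 35 members 31 passed the filter on low counts and were tested, and their fitted level in DKD kidneys ran from 0.21 times (Col19a1) to 3.74 times (Col6a6) that in control kidneys. The value of Col6a6 rested on DKD replicate 1 (8.34 CPM, against 0.895 and 0.259 CPM in the other DKD kidneys). Without that kidney the log2 fold change of Col6a6 was -0.56. With edgeR's quasi-likelihood test on all 6 kidneys, 0 of the 31 passed an adjusted p of 0.05, as did 0% of the 19197 genes tested. An unadjusted p under 0.05 was reached by 13 of the 31 members and by 19.2% of all genes tested. Of these 12 were higher in DKD, where 12.2% of all genes tested were, and 1 was lower, Col19a1, where 7.05% were. The 3 DKD kidneys all lay above the 3 control kidneys for 11 members (13.8% of all genes) and all below them for 1 (11.5% of all genes), together 12 members and 25.4% of all genes. The fitted level was higher in DKD for 29 of the 31 members, with a median log2 fold change of 0.83, beside 52.4% of all genes and a median of 0.022. Low-count members could pass the filter through the group in which they are high, and this bears on these counts.

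By class, the fitted level was higher in DKD for 9 of 9 tested fibrillar members (median log2 fold change 0.89), 5 of 6 FACIT (0.46), 2 of 2 network (1.51), 6 of 6 type VI (0.81), 2 of 2 multiplexin (0.98) and 3 of 4 transmembrane members (0.60). An unadjusted p under 0.05 was reached by 6 fibrillar, 2 FACIT, 1 network, 2 type VI, 2 multiplexin and 0 transmembrane members. Over all genes tested, 52.4% had a higher fitted level in DKD and 19.2% had an unadjusted p under 0.05 in either direction. The type VI count includes Col6a6, whose fitted level was lower in DKD without DKD replicate 1. All counts by class are a description, and the classes were not tested against each other.

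Without DKD replicate 1, edgeR called 8 of 33 tested members at an adjusted p of 0.05, all higher in DKD, where 9.67% of 19989 genes were called higher and 5.84% lower. They were Col1a1, Col1a2, Col3a1, Col5a2, Col5a3, Col8a1, Col12a1 and Col18a1. Leaving out any other single library, edgeR called 0 members and 0 to 7 genes. On all 6 kidneys, limma-voom with sample quality weights called 8 members higher (background 9.94%) and Col19a1 lower (background 7.75%), DESeq2 called 9 higher (background 6.22%) and Col19a1 lower (background 2.89%), and limma-voom without weights called 0 members and 0% of genes. Col1a1, Col1a2, Col3a1, Col5a2, Col8a1 and Col18a1 passed in each of the 3 fits that called members, and these fits draw on the same libraries. As the 3 fits were picked for calling members, this overlap is a description. The share of all genes that passed all 3 was not counted. The quality weight of DKD replicate 1 was 0.302, against 2.07 and 1.18 for DKD replicates 2 and 3. The weighted fit thus also relied less on the kidney that the edgeR refit left out.

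**Figure D2:**
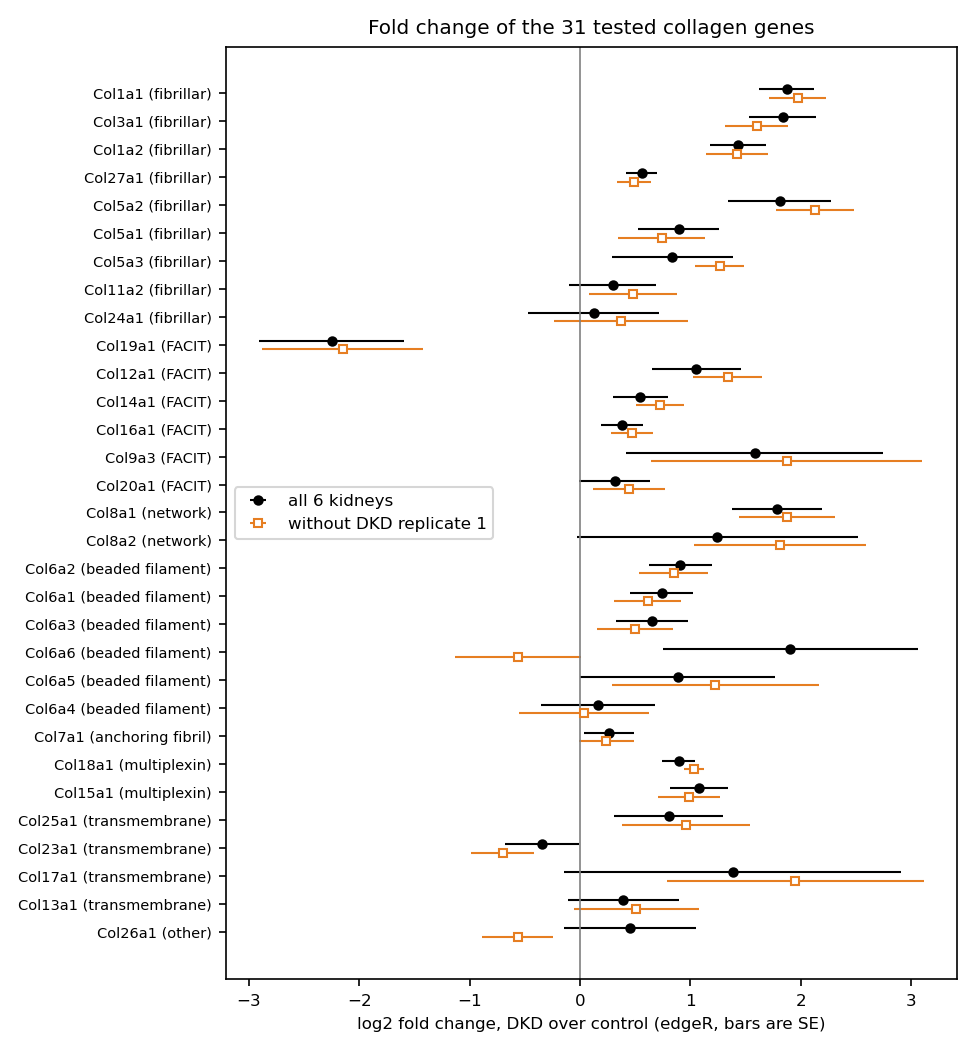
Log2 fold change of DKD over control (x axis, edgeR, bars are SE) for the 31 tested collagen genes (y axis, with class), from all 6 kidneys (black circles) and without DKD replicate 1 (open orange squares). Of the 31 genes 29 lie right of 0 with all 6 kidneys, Col19a1 lies farthest left at -2.25, and Col6a6 and Col26a1 cross 0 when DKD replicate 1 is left out.

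Type I and type III chains, the bulk of interstitial fibrils, lay higher in every DKD kidney than in every control kidney. In linear terms the fitted level in DKD was 3.66 times that in control for Col1a1, 3.57 times for Col3a1 and 2.7 times for Col1a2, and none passed the adjusted threshold with all 6 kidneys. Col1a1, which encodes the alpha 1 chain of type I collagen, was at 23.3, 23.6 and 35.9 CPM in DKD kidneys, against 5.49, 7.88 and 9.25 CPM in control kidneys. DKD replicate 3 was the highest and control replicate 1 the lowest, with a log2 fold change of 1.87 ± 0.25 (SE; adjusted p = 0.103 with edgeR), or 1.97 ± 0.26 without DKD replicate 1 (adjusted p = 0.00524 with edgeR). Col1a2, the partner chain of type I collagen, was at 58.2, 43.7 and 71.9 CPM in DKD kidneys, against 15.9, 20.6 and 28 CPM in control kidneys. Its groups did not overlap either, and its log2 fold change was 1.43 ± 0.25 (SE; adjusted p = 0.103 with edgeR), or 1.42 ± 0.28 without DKD replicate 1 (adjusted p = 0.0222). Col3a1 encodes the single chain of type III collagen, which forms fibrils together with type I, and was at 71.4, 36.8 and 57.9 CPM in DKD kidneys, against 11.2, 14.8 and 20.6 CPM in control kidneys. DKD replicate 1 was the highest of the 6 kidneys, and control replicate 1 the lowest. The log2 fold change of Col3a1 was 1.83 ± 0.31 (SE; adjusted p = 0.103 with edgeR), or 1.60 ± 0.28 without DKD replicate 1 (adjusted p = 0.0152).

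**Figure D3:**
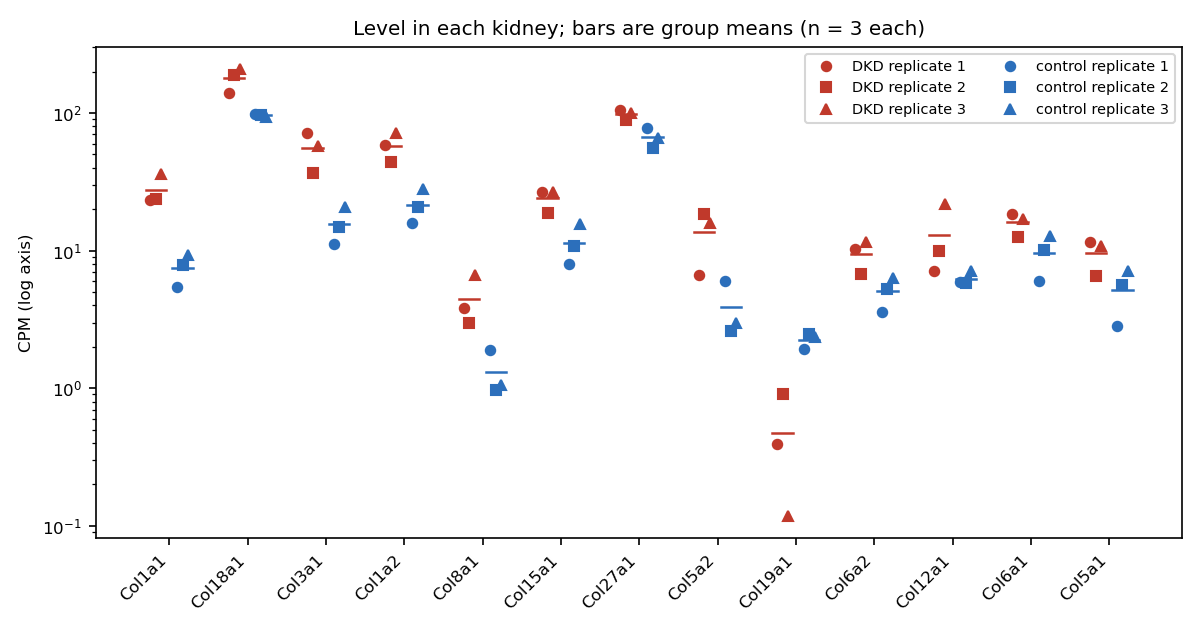
Level (y axis, CPM, log axis) in each kidney of the 13 collagen genes with an unadjusted p under 0.05, ordered by p (x axis), with DKD in red left of control in blue, symbols for replicates 1 to 3 and bars for group means. Col1a1 runs from 23.3 to 35.9 CPM in DKD and from 5.49 to 9.25 CPM in control kidneys, and Col19a1 is the one gene of the 13 that is lower in DKD.

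The 250 bases before the RefSeq starts (GRCm38.p6) were searched on both strands in the 28 members that the promoter table holds, because the type I and type III genes were higher in the same DKD kidneys. Col1a1, Col5a2, Col12a1 and Col14a1 are among the members it does not hold, so Col1a2 was the only type I gene searched. CCAAT, the box bound by NF-Y, was found before at least 1 start of 9 of the 28 genes and of 37.5% of all 27025 genes in the table. CAGAC, a core of the SMAD binding site, was found in 14 of the 28 and in 45.8% of all genes, counted in the same way. TATAAA was found in 5 of the 28 and in 14.3% of all genes, and GGGCGG, the box bound by SP1, in 17 of the 28 and in 35.4%. The matches printed do not overlap each other. A match is a description and not a bound site. Shown are the 150 bases before the start of Col1a2 (chr6:4505468-4505617, plus strand) and Col3a1 (chr1:45311388-45311537, plus strand). Capitals mark every match of the 4 motifs within these 150 bases. In Col1a2 this is CCAAT, starting 109 bases before the start. In Col3a1 they are TATAAA at 117 bases and CAGAC, on the opposite strand, at 64 bases. The rest of the 250 bases searched is not printed. There Col1a2 also held CAGAC and 2 matches of GGGCGG, and Col3a1 held a further CAGAC.
Col1a2: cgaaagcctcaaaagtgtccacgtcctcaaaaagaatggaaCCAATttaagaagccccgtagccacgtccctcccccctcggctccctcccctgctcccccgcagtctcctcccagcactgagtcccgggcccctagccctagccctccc
Col3a1: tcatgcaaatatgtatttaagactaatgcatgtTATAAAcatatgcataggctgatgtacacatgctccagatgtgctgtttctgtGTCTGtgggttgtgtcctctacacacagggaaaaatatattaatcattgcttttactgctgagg

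Of the type V chains, which join type I fibrils and set their width, 1 of 3 was separated between the groups. Col5a2 was at 6.65, 18.3 and 15.8 CPM in DKD kidneys, against 6.06, 2.61 and 2.99 CPM in control kidneys. DKD replicates 2 and 3 stood well above the other 4 kidneys, while DKD replicate 1 lay just above control replicate 1. Its log2 fold change was 1.81 ± 0.47 (SE; adjusted p = 0.139 with edgeR), or 2.13 ± 0.35 without DKD replicate 1 (adjusted p = 0.0109). Col5a1, the chain that pairs with it in most type V trimers, was at 11.5, 6.49 and 10.9 CPM in DKD kidneys, against 2.84, 5.64 and 7.05 CPM in control kidneys. Its groups overlapped, since DKD replicate 2 lay below control replicate 3 (log2 fold change 0.89 ± 0.37, SE; adjusted p = 0.248 with edgeR). Col5a3, a chain of rarer type V trimers, was at 1.37, 5.75 and 7.28 CPM in DKD kidneys, against 2.29, 2.97 and 2.82 CPM in control kidneys. DKD replicate 1 was the lowest of the 6 kidneys and the other DKD kidneys were the highest, so the log2 fold change was 0.83 ± 0.55 (SE; adjusted p = 0.434 with edgeR) with all kidneys and 1.26 ± 0.22 without DKD replicate 1 (adjusted p = 0.0129). It was 0.40 without DKD replicate 3 (adjusted p = 0.82).

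Col27a1, a fibrillar collagen with a shortened helix, had the second highest level per kb of all members and was at 106, 89.1 and 99.3 CPM in DKD kidneys, against 78.2, 55.9 and 66.1 CPM in control kidneys. The groups did not overlap, with a log2 fold change of 0.56 ± 0.14 (SE; adjusted p = 0.133 with edgeR), or 0.49 ± 0.15 without DKD replicate 1 (adjusted p = 0.0702). The other minor fibrillar genes were low and overlapped between groups. Col11a2, a cartilage chain, ran at 0.893 to 1.7 CPM in DKD kidneys and 0.64 to 1.24 CPM in control kidneys. Col24a1, a fibrillar collagen of bone and cornea, ran at 0.46 to 1.31 CPM in DKD kidneys and 0.339 to 1.04 CPM in control kidneys. Col11a1, a partner of Col11a2 in type XI collagen, was not tested and held at most 0.283 CPM in any kidney.

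Ratios of counts between chains within a kidney do not depend on library scaling. The ratio of Col1a1 to Col1a2 counts was 0.4, 0.539 and 0.499 in DKD kidneys, against 0.346, 0.382 and 0.331 in control kidneys. It was higher in all 3 DKD kidneys than in all 3 control kidneys, by 0.43 on the log2 scale (-1.07 ± 0.22 in DKD and -1.51 ± 0.11 in control, SD, n = 3 each; exact permutation p = 0.1, adjusted p = 0.2 over 4 ratios, two-sided). The smallest p that 3 against 3 allows is 0.1. The ratio of Col5a1 to Col1a1 counts was 0.494, 0.275 and 0.303 in DKD kidneys, against 0.518, 0.715 and 0.762 in control kidneys. All DKD kidneys were below all control kidneys, with a log2 difference of -0.93 (exact permutation p = 0.1, adjusted p = 0.2). The ratio of Col3a1 to Col1a1 counts was 3.07, 1.56 and 1.61 in DKD kidneys, against 2.04, 1.87 and 2.23 in control kidneys. DKD replicate 1 was above every control kidney and the other DKD kidneys were below them, with a log2 difference of -0.047 (exact permutation p = 1, adjusted p = 1). For Col6a3 to Col6a1, chains of type VI collagen, the ratio was 0.939, 0.813 and 0.954 in DKD kidneys, against 1.06, 0.778 and 1.08 in control kidneys, and the groups overlapped (exact permutation p = 0.6, adjusted p = 0.8).

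By fitted level 5 of the 6 tested FACIT members were higher in DKD, where 52.4% of all genes were, and Col19a1 was lower. Col19a1, a collagen found near basement membranes, was at 0.394, 0.908 and 0.118 CPM in DKD kidneys, against 1.94, 2.47 and 2.36 CPM in control kidneys. Every DKD kidney was below every control kidney, and the log2 fold change was -2.25 ± 0.65 (SE; adjusted p = 0.156 with edgeR), or -2.15 ± 0.73 without DKD replicate 1 (adjusted p = 0.092). In counts these were 30, 70 and 10 reads in DKD and 115, 163 and 167 in control libraries. Col12a1, a FACIT of dense connective tissue that binds type I fibrils, was at 7.16, 9.9 and 21.9 CPM in DKD kidneys, against 5.87, 5.82 and 7.11 CPM in control kidneys. DKD replicate 3 held far more than the others, and DKD replicate 1 was just above control replicate 3 (log2 fold change 1.05 ± 0.40, SE; adjusted p = 0.224; 1.34 ± 0.32 without DKD replicate 1, adjusted p = 0.0323, both with edgeR). Without DKD replicate 3 it was 0.44 (adjusted p = 0.507 with edgeR). Col14a1, a fibril-associated collagen of fibroblasts and the FACIT member with the highest level per kb, was at 21.3, 25 and 41.8 CPM in DKD kidneys, against 17.7, 20.6 and 22.1 CPM in control kidneys. DKD replicate 3 was the highest kidney and DKD replicate 1 lay within the control range. Col16a1, a FACIT of skin and smooth muscle, was at 11.8, 13.9 and 15.8 CPM in DKD kidneys, against 8.47, 11.1 and 12.3 CPM in control kidneys, and it overlapped through the same kidney. The log2 fold changes were 0.55 ± 0.25 for Col14a1 and 0.38 ± 0.19 for Col16a1 (SE; adjusted p = 0.288 and 0.313 with edgeR). Col14a1 was at 0.20 without DKD replicate 3 and Col16a1 at 0.24 without control replicate 1. Col20a1 ran at 1.59 to 2.71 CPM in DKD kidneys and 1.23 to 1.83 CPM in control kidneys and overlapped (log2 fold change 0.31 ± 0.32, SE; adjusted p = 0.619 with edgeR). Col9a3, a chain of cartilage type IX collagen, was at 0.25, 0.48 and 0.66 CPM in DKD kidneys, against 0.0673, 0.394 and 0 CPM in control kidneys, in an overlap of the groups near the limit of counting. Its log2 fold change of 1.58 ± 1.16 (SE; adjusted p = 0.482 with edgeR) was 3.78 without control replicate 2 and 0.99 without control replicate 3. Col22a1 was not tested, with at most 0.177 CPM in any kidney.

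The network class was carried by Col8a1. This chain of type VIII collagen, which is made by endothelial, smooth muscle and mesangial cells, was at 3.85, 2.98 and 6.62 CPM in DKD kidneys, against 1.88, 0.97 and 1.06 CPM in control kidneys. Every DKD kidney was above every control kidney, with a log2 fold change of 1.78 ± 0.41 (SE; adjusted p = 0.115 with edgeR), or 1.87 ± 0.43 without DKD replicate 1 (adjusted p = 0.0302). Col8a2, the other chain of type VIII collagen, ran at 0 to 0.742 CPM in DKD kidneys and 0.0846 to 0.182 CPM in control kidneys. DKD replicate 3 alone stood out, and the counts in the others were close to the limit of detection, since a gene with no count may still be present at up to 3 counts, or 0.0353 to 0.0505 CPM in these libraries (counting error only). Col10a1, the collagen of hypertrophic cartilage, was listed at 0 in 4 of the 6 kidneys and was not tested.

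The main type VI chains were higher on average in DKD, and 2 of the 3 overlapped between groups. Col6a1 was at 18.6, 12.6 and 17 CPM in DKD kidneys, against 6.06, 10.03 and 12.8 CPM in control kidneys. DKD replicate 2 lay just below control replicate 3 (log2 fold change 0.74 ± 0.29, SE; adjusted p = 0.226 with edgeR). Col6a2 was at 10.2, 6.76 and 11.6 CPM in DKD kidneys, against 3.58, 5.23 and 6.38 CPM in control kidneys. Its groups did not overlap, with DKD replicate 2 just above control replicate 3 (log2 fold change 0.91 ± 0.29, SE; adjusted p = 0.17 with edgeR). Col6a3 was at 17.5, 10.2 and 16.2 CPM in DKD kidneys, against 6.41, 7.8 and 13.7 CPM in control kidneys, with DKD replicate 2 inside the control range. Its log2 fold change was 0.65 ± 0.33 (SE; adjusted p = 0.32 with edgeR). Without DKD replicate 1 the log2 fold changes were 0.61 ± 0.30 for Col6a1, 0.85 ± 0.31 for Col6a2 and 0.50 ± 0.35 for Col6a3. Col6a3 was at 1.04 without control replicate 3.

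Col6a6, a further type VI chain, was high in 1 library. It was at 8.34, 0.895 and 0.259 CPM in DKD kidneys, against 0.69, 0.894 and 0.945 CPM in control kidneys. DKD replicate 1 held many times the level of any other kidney and DKD replicate 3 was the lowest of all. The log2 fold change was 1.90 ± 1.16 with all kidneys and -0.56 ± 0.57 without DKD replicate 1 (SE; adjusted p = 0.404 and 0.559 with edgeR). Col6a4 (0.286 to 0.97 CPM over all kidneys) and Col6a5 (0.067 to 0.648 CPM) were low, and both overlapped.

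Col7a1, the anchoring fibril collagen, was at 3.77, 3.49 and 3.79 CPM in DKD kidneys, against 2.41, 3.61 and 3.2 CPM in control kidneys, an overlap of the groups, with a log2 fold change of 0.26 ± 0.23 (SE; adjusted p = 0.551 with edgeR).

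The multiplexins, whose C-terminal part can be released (as endostatin from type XVIII), both lay higher in DKD without overlap. Col18a1, a heparan sulphate proteoglycan core of epithelial and vascular basement membranes, was at 141, 191 and 208 CPM in DKD kidneys, against 99, 97.2 and 94.4 CPM in control kidneys. The 3 control kidneys lay close together, and DKD replicate 1 was the lowest of the DKD kidneys. Its log2 fold change was 0.89 ± 0.15 (SE; adjusted p = 0.103 with edgeR), or 1.03 ± 0.093 without DKD replicate 1 (adjusted p = 0.00173). Col15a1, found at the interface of basement membrane and interstitial fibrils, was at 26.7, 18.8 and 26.7 CPM in DKD kidneys, against 7.96, 10.8 and 15.5 CPM in control kidneys. The lowest DKD kidney was replicate 2 and the highest control kidney was replicate 3. Its log2 fold change was 1.08 ± 0.26 (SE; adjusted p = 0.128 with edgeR), or 0.99 ± 0.28 without DKD replicate 1 (adjusted p = 0.0568).

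Transmembrane collagens were low, and their summed level was 6.29, 5.4 and 3.89 CPM in DKD and 5, 5.71 and 6.42 CPM in control kidneys. Col23a1, the highest of them per kb and one that is shed from the cell surface, was at 5.48, 3.87 and 2.19 CPM in DKD kidneys, against 4.56, 4.64 and 5.47 CPM in control kidneys. DKD replicate 3 was the lowest kidney and the log2 fold change was -0.35 ± 0.33 (SE; adjusted p = 0.593 with edgeR), or -0.70 ± 0.29 without DKD replicate 1 (adjusted p = 0.146). Col25a1, known as a component of amyloid plaques, was at 0.328, 0.363 and 0.613 CPM in DKD kidneys, against 0.202, 0.318 and 0.226 CPM in control kidneys, so the groups did not overlap at a low level (log2 fold change 0.80 ± 0.49, SE; adjusted p = 0.403 with edgeR; 0.47 without DKD replicate 3). Col13a1, which concentrates at neuromuscular junctions, ran at 0.486 to 0.801 CPM in DKD kidneys and 0.236 to 0.667 CPM in control kidneys and overlapped. Col17a1, the hemidesmosome collagen of stratified epithelia, was at 0, 0.675 and 0.283 CPM in DKD kidneys, against 0, 0.0909 and 0.268 CPM in control kidneys, and was listed at 0 in 1 kidney of each group.

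Col26a1, which belongs to none of these classes, was at 7.43, 2.41 and 1.27 CPM in DKD kidneys, against 2.74, 2.88 and 2.51 CPM in control kidneys. DKD replicate 1 was the highest kidney and DKD replicates 2 and 3 were the lowest. Its log2 fold change was 0.45 ± 0.60 with all kidneys and -0.57 ± 0.32 without DKD replicate 1 (SE; adjusted p = 0.705 and 0.286 with edgeR). Col28a1, a collagen of peripheral nerve, was not tested and held at most 0.136 CPM in any kidney.

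Levels were compared between genes as CPM per kb of 1 protein-coding GENCODE M21 transcript per gene, here in the order of the DKD means. Col18a1 was highest, at 32.1 ± 6.26 CPM per kb in DKD and 17.3 ± 0.414 in control (SD, n = 3 each), and Col27a1 followed at 12.9 ± 1.12 CPM per kb in DKD and 8.77 ± 1.46 in control. Next came Col1a2, at 10.8 ± 2.63 CPM per kb in DKD and 4.02 ± 1.14 in control, then Col3a1 at 9.95 ± 3.14 CPM per kb in DKD and 2.79 ± 0.852 in control. In DKD, Col27a1, Col1a2 and Col3a1 each differed from the next by less than the larger of their SDs, while Col18a1 stood above them and Col15a1 below. In control, Col18a1, Col27a1 and Col1a2 were separated by more than their SDs, and from Col1a2 downward each gene differed from the next by less: Col14a1 (3.12 ± 0.348 CPM per kb), Col3a1, Col6a1 (2.34 ± 0.821), Col15a1 (2.21 ± 0.74) and Col16a1 (2.04 ± 0.38). Col1a1 had rank 6 in DKD, at 4.65 ± 1.21 CPM per kb, and rank 10 in control, at 1.27 ± 0.322. In DKD it lay beside Col15a1 (4.66 ± 0.878) and Col14a1 (4.55 ± 1.69), within their SDs.

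Summed CPM, which are not scaled by length, gave the weight of each class. The sum over the 35 members was 567, 535 and 681 CPM in DKD kidneys, against 295, 301 and 342 CPM in control kidneys, a ratio of means of 1.9, and 1.94 without DKD replicate 1. Fibrillar members summed to 279.9, 227 and 301 CPM in DKD, against 124, 113 and 138 CPM in control, without overlap. Multiplexins summed to 167, 209.5 and 235 CPM in DKD, against 107, 108 and 109.9 CPM in control, also without overlap. The summed levels of the FACIT, type VI, type VII and transmembrane members overlapped between groups. As shares of the summed CPM, Col1a1, Col1a2 and Col3a1 held 4.59%, 9.66% and 9.33% on average in DKD kidneys, and 2.39%, 6.8% and 4.9% in control kidneys. Col18a1 held 30.3% in DKD and 31.1% in control kidneys, and Col27a1 held 16.7% in DKD and 21.5% in control kidneys.

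Which DKD kidney was highest differed between members, as it did between genes in general, and the counts that follow were not tested. Among the 31 tested members, DKD replicate 3 was the highest DKD kidney for 16 (33% of all genes tested), replicate 1 for 9 (39.1%) and replicate 2 for 6 (27.9%). DKD replicate 1 lay above every control kidney for 18 members (27.7% of all genes), replicate 2 for 20 (35.1%) and replicate 3 for 23 (36%). They lay below every control kidney for 3 (25.8%), 3 (30.6%) and 4 members (32.2%). DKD replicate 1 was the highest DKD kidney for Col3a1, Col5a1, Col6a1, Col6a3, Col6a6, Col15a1, Col23a1, Col26a1 and Col27a1, and the lowest for Col5a2, Col5a3, Col12a1, Col14a1 and Col18a1 among others. Among control kidneys, replicate 1 was the lowest for 22 of the 31 members (40% of all genes), and replicate 3 the highest for 15 (30.9%).

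**Figure D4:**
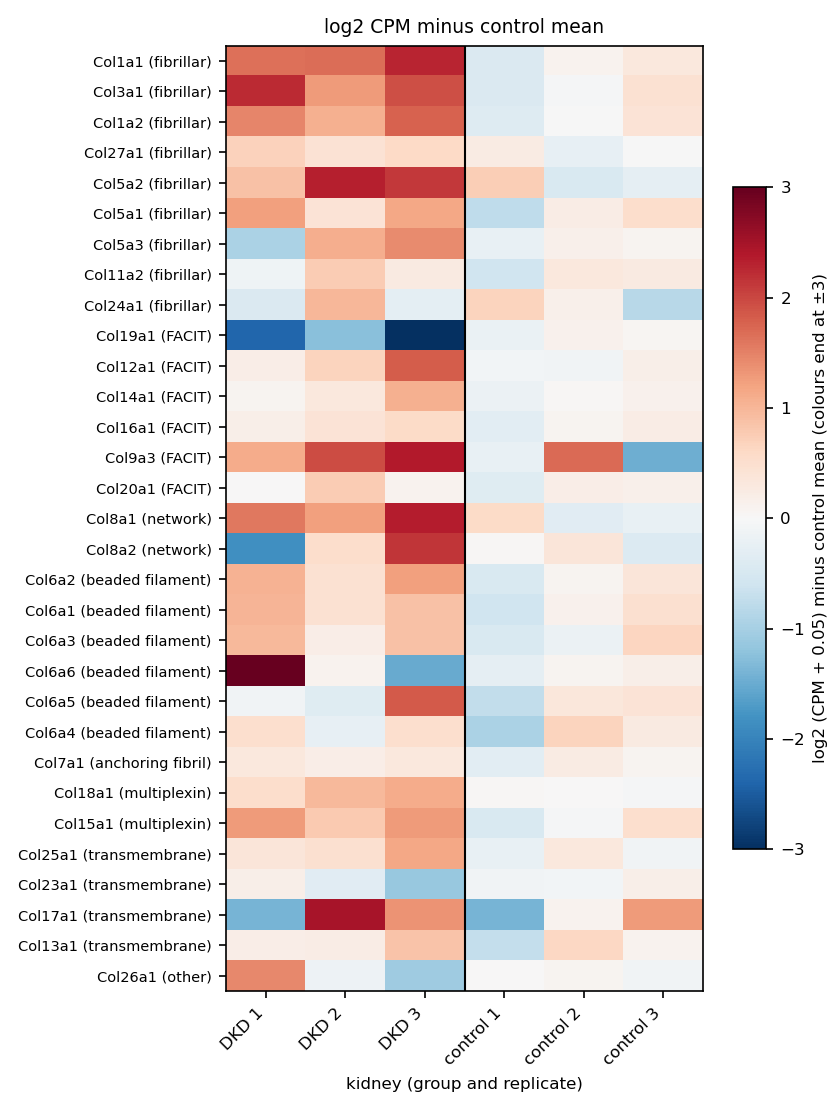
Log2 (CPM + 0.05) minus the control mean (colour, ending at ±3) for the 31 tested collagen genes (rows, with class) in each kidney (columns, DKD left of control). Col1a1, Col1a2, Col3a1, Col8a1, Col15a1 and Col18a1 are above the control mean in all 3 DKD kidneys, Col19a1 is below it in all 3, and Col6a6 and Col26a1 are high in DKD replicate 1 only.

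Genes that make, process, join, bind or break down collagen were followed along the pathway. Of 65 listed genes 61 were tested, and 0 passed an adjusted p of 0.05 with edgeR. At an unadjusted p under 0.05, 21 were higher in DKD (background 12.2%) and 2 lower (background 7.05%), and the median log2 fold change was 0.46, beside 0.022 for all genes tested. Without DKD replicate 1, 20 were called higher (background 9.67%) and 2 lower (background 5.84%). These genes were read from the same libraries as the collagens.

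For the early steps inside the cell the list medians lay near that of all genes. The 13 tested genes of hydroxylation and glycosylation, which modify the chains before they fold, had a median of 0.11, and the 10 chaperones and export factors had a median of 0.02. At an unadjusted p under 0.05 with edgeR, 3 genes of the first list were higher in DKD and 1 was lower. In the second list 1 was higher and 1 lower. Over all genes tested the shares were 12.2% higher and 7.05% lower. Plod2, a lysyl hydroxylase that prepares cross-links, was at 56.8, 30.5 and 43.8 CPM in DKD kidneys, against 31.6, 24.7 and 27.4 CPM in control kidneys, with an overlap of the groups. Crtap, part of the prolyl 3-hydroxylase complex, was at 45.5, 43.2 and 34.3 CPM in DKD kidneys, against 60.4, 54.5 and 46.1 CPM in control kidneys, and every DKD kidney was below every control kidney (log2 fold change -0.39 ± 0.15, SE; adjusted p = 0.217 with edgeR). Colgalt1, which adds galactose to hydroxylysine, had a log2 fold change of 0.34 ± 0.14. Fkbp10, a prolyl isomerase that folds procollagen, was at 5.15, 4.3 and 6.93 CPM in DKD kidneys, against 2.93, 2.98 and 2.27 CPM in control kidneys, without overlap (log2 fold change 1.00 ± 0.25, SE; adjusted p = 0.133 with edgeR). Mia3, which loads procollagen into transport carriers, had a log2 fold change of -0.33 ± 0.13. Serpinh1, the collagen chaperone HSP47, was at 106, 69.1 and 94.9 CPM in DKD kidneys, against 84.6, 44.1 and 58.7 CPM in control kidneys, and the groups overlapped through control replicate 1.

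For steps outside the cell the list medians ran from 0.53 to 1.26. Of all genes tested, 52.4% had a higher fitted level in DKD and 12.2% were higher with an unadjusted p under 0.05. DKD lay above control without overlap for 13.8% of all genes. Of the 7 tested genes of propeptide removal 2 had an unadjusted p under 0.05, both higher in DKD. Adamts2, which cuts the N-propeptides of types I and III, was at 4.2, 3.58 and 7.88 CPM in DKD kidneys, against 1.57, 1.56 and 1.76 CPM in control kidneys (log2 fold change 1.68 ± 0.34, SE; adjusted p = 0.104 with edgeR). Pcolce, an enhancer of C-propeptide removal, was at 79.2, 96.6 and 101 CPM in DKD kidneys, against 66.3, 63.3 and 56.3 CPM in control kidneys, and neither gene overlapped between groups. Bmp1, the C-proteinase itself, had a log2 fold change of 0.54 ± 0.25 and overlapped. All 5 lysyl oxidases, which cross-link fibrils, had a higher fitted level in DKD, 4 of them with an unadjusted p under 0.05 and without overlap. Lox was at 3.65, 4.13 and 7.85 CPM in DKD kidneys, against 1.55, 1.24 and 1.62 CPM in control kidneys and had a log2 fold change of 1.82 ± 0.35 (SE; adjusted p = 0.103 with edgeR). Loxl2 and Loxl4 had log2 fold changes of 1.26 ± 0.24 and 1.74 ± 0.53.

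All 10 tested genes of fibril assembly had a higher fitted level in DKD, 4 of them with an unadjusted p under 0.05, and the median was 0.88. The shares over all genes tested were 52.4% for a higher fitted level and 12.2% for higher with an unadjusted p under 0.05. For DKD above control without overlap the share was 13.8%. Sparc, a matrix protein that binds collagen, had a log2 fold change of 1.54 ± 0.15 and Fn1, fibronectin, one of 2.12 ± 0.30 (SE; adjusted p = 0.0978 and 0.103 with edgeR). Dcn, decorin, a proteoglycan that binds fibrils, was at 22.7, 29.9 and 36.7 CPM in DKD kidneys, against 13.9, 13.1 and 15.4 CPM in control kidneys, without overlap (log2 fold change 1.08 ± 0.18, SE; adjusted p = 0.103 with edgeR). Among 9 tested collagen receptors all had a higher fitted level, 4 with an unadjusted p under 0.05. Itga2, the integrin chain of an epithelial and platelet collagen receptor, was at 0.827, 9.36 and 7.74 CPM in DKD kidneys, against 0.505, 0.364 and 0.931 CPM in control kidneys. DKD replicate 1 lay within the control range and the other DKD kidneys were far above it. Lair1, an inhibitory collagen receptor of leukocytes, and Mrc2, a receptor that takes up collagen fragments, had log2 fold changes of 1.09 ± 0.35 and 0.83 ± 0.31. Of 7 tested genes of collagen breakdown 3 had an unadjusted p under 0.05, all higher in DKD and without overlap. Mmp2, a gelatinase, was at 4.79, 9.5 and 20.9 CPM in DKD kidneys, against 2.47, 1.71 and 2.16 CPM in control kidneys, and Mmp14, the membrane protease that activates it, at 6.47, 10.4 and 14.6 CPM in DKD kidneys, against 3.13, 3.82 and 4.36 CPM in control kidneys. Ctsk, cathepsin K, had a log2 fold change of 1.01 ± 0.32.

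**Figure D5:**
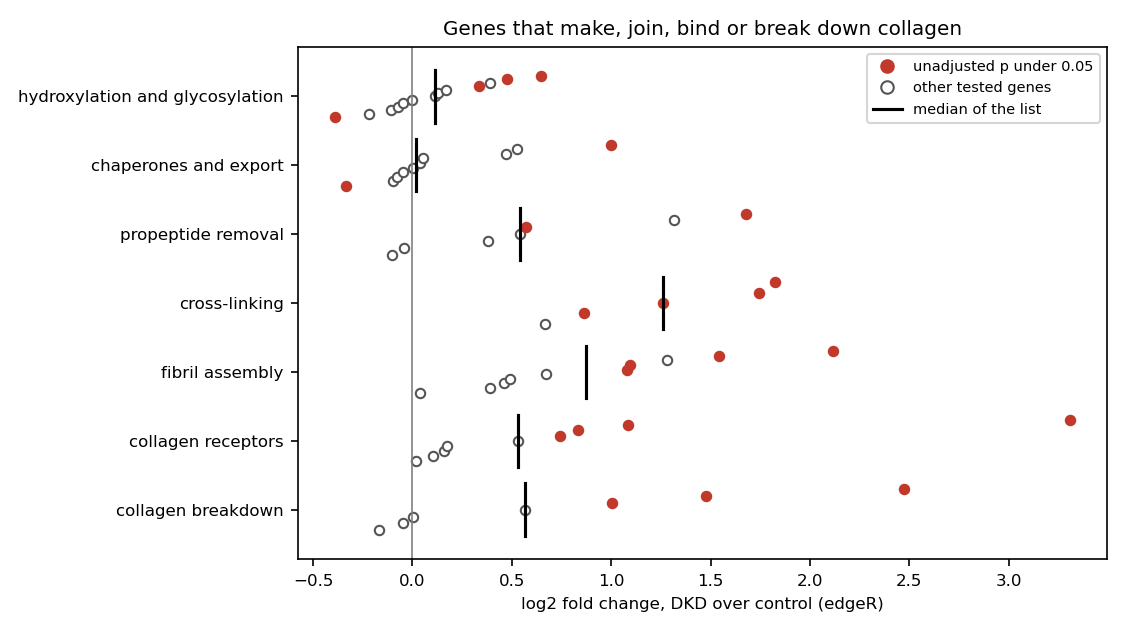
Log2 fold change of DKD over control (x axis, edgeR) for the 61 tested genes that make, join, bind or break down collagen, by step (y axis). Red points have an unadjusted p under 0.05, open points do not, and black bars are list medians, which run from 0.02 for chaperones and export to 1.26 for cross-linking.

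Marker lists of cell types differed between the groups as follows, and their part in the collagen results was not tested. The 10 fibroblast and pericyte markers summed to 143 to 178 CPM in DKD kidneys and 97.1 to 118 CPM in control kidneys. The 7 myofibroblast and smooth muscle markers summed to 56.3 to 94.2 CPM in DKD kidneys and 44.4 to 56.1 CPM in control kidneys, where DKD replicate 1 was level with control replicate 3. The 7 podocyte markers summed to 342 to 441 CPM in DKD kidneys and 269 to 341 CPM in control kidneys, the 7 endothelial markers to 293 to 396 CPM in DKD kidneys and 266 to 300.1 CPM in control kidneys and the 7 macrophage markers to 124 to 196 CPM in DKD kidneys and 103 to 117 CPM in control kidneys. DKD lay above control without overlap for 7 of 10 fibroblast and pericyte, 3 of 7 myofibroblast and smooth muscle, 6 of 7 podocyte, 4 of 7 endothelial and 2 of 7 macrophage markers, where 13.8% of all genes did, and below control for none of them. The 10 hepatocyte markers summed to 237 to 3735 CPM in DKD kidneys and 93.5 to 189.9 CPM in control kidneys. Most of the sum in DKD replicates 2 and 3 was Ttr, the transthyretin gene, at 179.7, 181 and 257 CPM in DKD kidneys, against 89.3, 0.485 and 0.339 CPM in control kidneys. Without Ttr, left out after its values were seen, the other 9 summed to 3556, 56.6 and 58.9 CPM in DKD kidneys, against 101, 93 and 132 CPM in control kidneys, so that DKD replicates 2 and 3 were below every control kidney. Of these, Ahsg, Tat and Cps1 were at 0 in control kidneys and at 376, 26.4 and 129 CPM in DKD replicate 1, the other DKD kidneys holding at most 0.0943 CPM. Outside DKD replicate 1 most of the sum without Ttr was Serpina1c. It was at 39.3 and 36.3 CPM in DKD replicates 2 and 3, against 77.5, 75 and 110 CPM in control kidneys. Fgb went the other way, at 1.57 and 3.52 CPM in DKD replicates 2 and 3 and at most 0.555 CPM in control kidneys. Without DKD replicate 1 the fitted change of the 31 members was larger in size for 18 (Col1a1 and Col18a1 among them), smaller for 11 (Col3a1, Col15a1, Col27a1 and the main type VI chains among them) and of the other sign for 2, Col6a6 and Col26a1. The shares over all genes were not counted, so these counts describe the members and do not set them apart from other genes.

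Markers of tissues that can adhere to a kidney were summed in the same way, and their part was not tested either. The 5 adipocyte markers summed to 0.368 to 14.5 CPM in DKD kidneys and 0.0564 to 0.5 CPM in control kidneys, highest in DKD replicate 3, with Adipoq and Plin1 at 0 in all control kidneys and in DKD replicate 1. The 5 urothelium markers summed to 9.51 to 47.7 CPM in DKD kidneys and 1.02 to 8.89 CPM in control kidneys, highest in DKD replicate 2. The 5 chondrocyte markers summed to 1.41 to 3.21 CPM in DKD kidneys and 1.61 to 2.39 CPM in control kidneys, with Acan and Matn3 at 0 in all 6 kidneys and Matn1 in 5. Of the other two, Sox9, which kidney epithelium can also express, was at 0.552, 1.97 and 2.26 CPM in DKD kidneys, against 0.0673, 0.545 and 0.564 CPM in control kidneys, with an overlap of the groups (log2 fold change 2.01 ± 0.81, SE; adjusted p = 0.24 with edgeR). Hapln1 was at 0.854, 1.23 and 0.719 CPM in DKD kidneys, against 1.88, 1.85 and 1.04 CPM in control kidneys, also with an overlap. The 5 adrenal cortex markers summed to 3.68 to 4.64 CPM in DKD kidneys and 3.7 to 4.61 CPM in control kidneys, and the 4 skeletal muscle markers to 0.895 to 1.13 CPM in DKD kidneys and 0.254 to 0.875 CPM in control kidneys.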

How the data were processed

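There were 3 DKD and 3 control libraries from whole mouse kidneys, profiled by RNA-seq of poly(A) RNA from dUTP (strand-marking) libraries, per the labels' protocols. The authors deposited 1 table of raw read counts per Ensembl gene, with no normalisation. The submitters' processing notes name GRCm39 as the build and, as tools, edgeR, StringTie, HISAT2 and fastp. Which tool made the counts, by what annotation and with which strand option is not given in the sources used here.

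Symbols were found for 55141 of 55401 gene IDs. From the counts, genes were filtered with filterByExpr, scaled with TMM factors and tested with edgeR 4.0.16 (robust quasi-likelihood test, two-sided, R 4.3.3). P-values were adjusted by Benjamini-Hochberg over all 19197 genes tested, with a threshold of 0.05. Every adjusted p of a gene comes from edgeR unless limma 3.58.1 or DESeq2 1.42.0 is named. DKD over control is the direction of every fold change. The 4 chain ratios were compared with exact permutation tests. The code was checked on simulated data. Alternatives covered scaling, filter, test, replicate block and each library left out.

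Per-kidney values are given for the 20 tested members with the smallest p, the chains of the ratios and the highest or lowest of a class, and for up to 3 genes of each partner list by p. The members, classes and lists were chosen with earlier results of these data known. Sequences and transcript lengths come from GENCODE M21 and RefSeq, both on GRCm38, so no gene coordinates of the counts are printed. Exons of 10 members overlap another gene's exons by at most 6.07% of their length, in Col9a3 with Tcfl5 on the opposite strand, where reads of both may mix if strand was not used.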

Additional observations from a re-analysis of the deposited data

How the results depend on the processing

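With all 6 kidneys, edgeR called 0 genes and 0 collagen members under TMM, RLE and upper quartile factors, under library size alone, and with a CPM minimum of 1 in 3 libraries (3694 genes had an unadjusted p under 0.05 with TMM). Without a filter it called 4 genes and 0 members. DESeq2 called 1749 genes and 10 members, and limma-voom with sample quality weights 3397 genes and 9 members. Leaving out 1 library at a time gave 0 to 3101 genes and 0 to 8 members, the highest of both without DKD replicate 1, and 0 members without any other library. Library size alone moved the median log2 fold change of all genes to 0.17 and that of the members to 1.02, and 29 of 31 members had a higher fitted level in DKD under each of the 4 scalings. The count was 26 of 31 with sample quality weights. Col6a6 turned to -0.35 with these weights and to -0.56 without DKD replicate 1, and reached 2.45 without DKD replicate 3. The DKD minus control difference in the Col3a1 to Col1a1 log2 ratio ran from -0.36 without DKD replicate 1 to 0.12 without DKD replicate 2, and was 0.099 without DKD replicate 3 and 0.015 without control replicate 3. The cause was not tested. Of 611 values of 41 single genes under these settings, 535 kept direction and call, 74 passed the threshold and 2 reversed.

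Same-numbered DKD and control kidneys had correlated deviations of r = 0.031, 0.020 and 0.042 over genes, each kidney's highest with its own number, a hint from the data that does not establish pairs. With the replicate block edgeR called 0 genes and 0 members, and the sign-flip tests of the ratios gave p = 0.25 for Col1a1 to Col1a2 and for Col5a1 to Col1a1, 0.5 for Col6a3 to Col6a1 and 1 for Col3a1 to Col1a1, where 0.25 is the smallest exact p. Members under 1 CPM rest on few reads, and how far depth limits their tests was not tested.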
